A study of Homo sapiens with 20 samples.

Results

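The genes described here encode 5 laminin chains (LAMA3, LAMB3, LAMA5, LAMB1 and LAMC1) and 3 proteins of the hemidesmosome (COL17A1, DST and PLEC). They were chosen by name, and the rows with these 8 gene names were taken from the 60271 genes in the deposited tables. The cells were MDA-MB-468, a human epithelial line from a triple negative breast cancer with high levels of the epidermal growth factor (EGF) receptor. The labels give a serum starvation of 24 h ahead of EGF, and they state that seeding and harvest were shared by all 5 groups and that the time at which EGF was given is what sets them apart. How long the untreated cells went without serum is not given in the sources used here. The control group received no EGF, and 4 other groups were kept in EGF at 50 ng/mL until harvest after 12, 24, 48 or 72 h, giving 20 libraries from 4 biological replicates of each group. A single cell line was used, so the replicates do not sample other lines or donors.

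Laminins are trimers of an α, a β and a γ chain that form the main network of basement membranes, the sheets of matrix under epithelia. Laminin-332, which holds the α3 chain encoded by LAMA3 and the β3 chain encoded by LAMB3, is the laminin to which hemidesmosomes attach, while LAMA5, LAMB1 and LAMC1 encode the chains of laminin-511, which is found in most adult basement membranes. In a hemidesmosome, integrin α6β4 and collagen XVII, the product of COL17A1, bind laminin-332 outside the cell, and 2 plakins, plectin from PLEC and BP230 from DST, tie them to keratin filaments inside. EGF receptor signaling is known to change how epithelial cells hold on to laminin, and laminin-332 is known for its role in the migration of keratinocytes and carcinoma cells.

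The total per library was between 15611961 and 25856953 estimated counts, and all 8 genes were among the 16522 kept for testing. Levels are in CPM, counts scaled to the same depth by TMM, with an SD over the libraries of a group, and levels of different genes are compared only per kb of merged exons. Adjusted p comes from the quasi-likelihood test of edgeR, corrected by the Benjamini-Hochberg procedure across the 16522 genes, and 0.05 was the threshold. All 4 times were compared with the same 4 control libraries. The mitochondrial share of counts had group medians between 9.34% at 12 h and 15.7% at 72 h. The epithelial markers EPCAM, KRT8, KRT18, KRT19 and CDH1 summed to between 1489 and 1920 CPM in the control, 5925 and 6358 at 12 h, 3432 and 4089 at 24 h, 1671 and 1852 at 48 h, and 2258 and 2598 at 72 h. KRT18 was the largest part of this sum in each group, with 723 to 957 CPM in the control and 4299 to 4604 at 12 h, while EPCAM was between 139 and 208 CPM in all libraries. Of 5 fibroblast markers, COL1A1 was at 5.33 to 8.44 CPM in the control and 13.2 to 15.2 CPM at 72 h, and COL3A1, DCN, LUM and PDGFRB were below 0.5 CPM. Of the leukocyte markers, CD68 was at 0.870 to 1.67 CPM in the control and at 13.6 to 29.3 CPM after EGF, while PTPRC and CD3E were below 0.5 CPM. Of 3 endothelial markers, PECAM1 was between 0.191 and 5.55 CPM, and VWF and CDH5 were below 0.5 CPM. The part of these genes in the results was not tested. In bulk RNA, fewer cells of a type and less RNA per cell cannot be told apart.

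Positions are from GENCODE 29 on GRCh38, which is the build hg38 named in the submitters' processing notes. LAMA3 lies at chr18:23689443-23956222 on the plus strand, with 80 merged exons and 14.68 kb of exon sequence, and LAMB3 at chr1:209614870-209652466 on the minus strand, with 24 merged exons and 4.688 kb. LAMA5 lies at chr20:62307955-62367312 (minus strand, 82 merged exons), LAMB1 at chr7:107923799-108003255 (minus strand, 35 merged exons) and LAMC1 at chr1:183023460-183145592 (plus strand, 29 merged exons). COL17A1 lies at chr10:104031286-104085957 (minus strand, 57 merged exons), DST at chr6:56457987-56954628 (minus strand, 113 merged exons) and PLEC at chr8:143915147-143976734 (minus strand, 44 merged exons). DST has 35 annotated transcripts, and its neuronal and muscle forms share exons with the epithelial form that gives BP230, so the gene-level count does not separate BP230 from the other forms. Exons of other genes overlapped at most 3.575% of the exon bases, in LAMB1, where the overlapping genes AC005046.1 and DLD lie on the opposite strand. For LAMA5 the share was 2.533%, with ADRM1 and LAMA5-AS1 on the opposite strand.

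Promoter windows of RefSeq, the 250 bases before a transcript start on GRCh38.p14, were matched for 7 of the 8 genes, all but PLEC, with 11 windows in all. They were searched for TGANTCA, which holds the core element of the AP-1 transcription factors and reads the same on both strands. This motif is in 2308 of 35116 promoter windows (6.573%), and in 2 of the 11 windows here, that of LAMA3 and 1 of the 3 of LAMB3. The LAMB3 window with the match lies inside the gene, while its other windows, which span the annotated gene start, held no match. The LAMA3 window starts inside the gene, in front of the start of its shorter transcripts. It holds 2 matches, which begin 125 and 69 bases before the start. Of the 250 bases of this window, 180 lie in annotated exons of LAMA3.

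The stretch of LAMB3 that carries its match is shown 5′ to 3′ on the strand of the gene, with the match in capitals. It lies at chr1:209651395-209651624 (minus strand), outside annotated exons, and the match begins 67 bases before the start.
LAMB3: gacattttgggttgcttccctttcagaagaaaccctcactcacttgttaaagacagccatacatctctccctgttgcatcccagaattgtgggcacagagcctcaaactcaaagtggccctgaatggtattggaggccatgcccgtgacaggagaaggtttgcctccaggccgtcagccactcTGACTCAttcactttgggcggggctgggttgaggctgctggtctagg

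COL17A1, whose ratio to the control at 72 h was the largest of the 8 genes, had no match in its window. The 173 bases of that window that lie outside annotated exons, at chr10:104085958-104086130 (minus strand), are given for comparison with the stretch above, all in lower case since no letters match.
COL17A1: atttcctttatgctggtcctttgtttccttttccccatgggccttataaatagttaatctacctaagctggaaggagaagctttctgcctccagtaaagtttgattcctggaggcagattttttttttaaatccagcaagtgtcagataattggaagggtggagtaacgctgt

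None of the windows of LAMA5, LAMB1, LAMC1 or DST held TGANTCA either, and the longer palindrome TGACGTCA, present in 1.646% of all windows, was in no window of the 7 genes. A match is a description of the letters, and no match says only that these letters are not in the window.

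All 8 genes had higher levels than the control after 12 h and after 24 h of EGF, and 6 of them at 48 h and at 72 h. In the 8 fits that left out a library, the number called at 48 h was 4 to 5, and at 12 h it was 7 to 8. Among all genes tested, the shares called higher at 12, 24, 48 and 72 h, in order, were 32.9%, 29.2%, 24.0% and 30.6%. Above 1.5-fold, the counts in the same order were 7, 7, 4 and 5 of 8, where 20.3%, 16.9%, 15.3% and 20.2% of all genes were called and above 1.5-fold. The median log2 fold change of the 8 genes was 1.10, 1.40, 0.60 and 1.07 at 12, 24, 48 and 72 h, beside medians of -0.05, -0.0071, 0.0099 and -0.0090 over all genes. None of the 8 genes was called lower than the control at any time, where 36.5%, 29.6%, 21.8% and 31.0% of all genes were, and 26.3%, 16.8%, 6.63% and 15.6% were called and lower by more than 1.5-fold. In either direction, 69.4%, 58.8%, 45.8% and 61.6% of all genes were called. The 4 EGF libraries did not overlap the controls for 8 genes at 12 h and at 24 h, for 4 at 48 h and for 5 at 72 h, and the share of all genes without overlap was 60.8%, 48.2%, 34.9% and 52.0%. The mean levels of LAMA3 and COL17A1 were highest at 72 h, and those of LAMB3, LAMA5, LAMC1 and PLEC were highest at 12 h. Those of LAMB1 and DST were highest at 24 h.

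**Figure D1:**
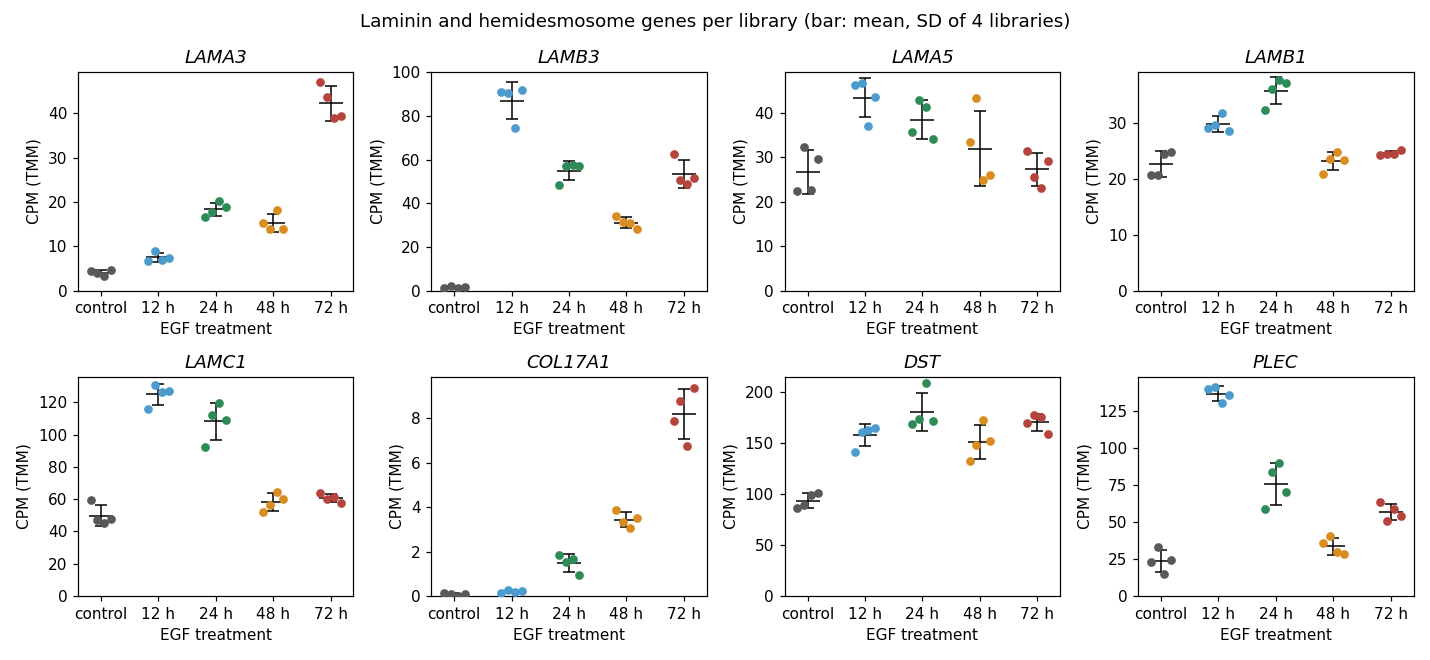
Each panel plots the level of a gene in CPM after TMM normalization (y axis, from 0) in every library of the control and of the EGF times 12, 24, 48 and 72 h (x axis). Points are libraries, the horizontal mark is the mean and the bar the SD of 4 libraries. LAMA3 climbed to 42.3 CPM and COL17A1 to 8.19 CPM at 72 h, while LAMB3 and PLEC were highest at 12 h, at 87.1 and 137 CPM.

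The share of higher genes depends on the scaling. With library size as the only scaling, the median of all genes at 12 h was -0.34 on the log2 scale, and 30.2% of the calls were higher, beside 47.4% with TMM. At 24 h the median was -0.15 and the share of calls that were higher was 36.3%, beside 49.6%. The values below are relative to the median gene under TMM, and library size alone ended 2 of the calls against the control, that of LAMB1 at 12 h (0.11, SE 0.08, adjusted p = 0.192, edgeR) and that of COL17A1 at 12 h (adjusted p = 0.106).

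Of the 5 laminin genes, LAMB3 had the largest change from the control at each time, and LAMA3 the next largest at 24, 48 and 72 h. LAMA3 encodes the α3 chain, whose end binds the integrins of the hemidesmosome. Its level in the 4 control libraries was 4.37, 3.91, 3.29 and 4.66 CPM. After EGF it was 6.62, 8.88, 7.02 and 7.41 CPM at 12 h, and 16.6, 17.7, 20.1 and 18.9 CPM at 24 h. At 48 h it was 15.3, 14.0, 18.2 and 13.9 CPM, and at 72 h it was 47.2, 43.8, 38.9 and 39.3 CPM. Every EGF library was above every control library, and the 4 libraries at 72 h were above those of all other groups. The log2 fold change against the control was 0.89 (SE 0.13, adjusted p = 1.83e-06) at 12 h and 2.18 (SE 0.12, adjusted p = 2.78e-13) at 24 h by edgeR's test. It was 1.93 (SE 0.12, adjusted p = 6.06e-12) at 48 h and 3.39 (SE 0.12, adjusted p = 4.57e-17) at 72 h, a 10.5-fold difference. Between successive times, LAMA3 rose 2.45-fold from 12 to 24 h and 2.75-fold from 48 to 72 h. From 24 to 48 h its difference was -0.25 (SE 0.11, adjusted p = 0.0575, edgeR), and this difference passed the threshold without 24 h replicate 1 (-0.30, adjusted p = 0.0362) or without 48 h replicate 3 (-0.35, adjusted p = 0.0117).

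LAMB3 encodes the β3 chain, which is found in laminin-332 and its close relatives. In the control its level was 1.26, 1.93, 1.11 and 1.68 CPM. At 12 h it was 91.1, 90.8, 74.5 and 92.1 CPM, and at 24 h it was 48.4, 56.95, 57.4 and 57.2 CPM. It was 34.4, 31.3, 30.8 and 28.4 CPM at 48 h and 62.7, 50.7, 48.8 and 51.6 CPM at 72 h. No EGF library came near the control range, and the 12 h libraries were above all libraries of the later times. The difference from the control was 57.9-fold at 12 h (log2 5.85, SE 0.14, adjusted p = 3.94e-20) and 36.5-fold at 24 h (log2 5.19, SE 0.14, adjusted p = 2.30e-19) in edgeR. It was 20.7-fold at 48 h (log2 4.37, SE 0.14, adjusted p = 1.14e-17) and 35.5-fold at 72 h (log2 5.15, SE 0.14, adjusted p = 1.44e-19). LAMB3 fell by 0.67 on the log2 scale from 12 to 24 h and by 0.82 from 24 to 48 h, and it rose by 0.78 from 48 to 72 h. For each of these steps the 4 libraries of one time did not overlap those of the other. At 72 h it remained below its 12 h level (log2 -0.70, SE 0.10, adjusted p = 9.20e-07, edgeR).

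LAMA3 was higher at 72 h than at 12 h (5.66-fold, adjusted p = 1.05e-14, edgeR), whereas LAMB3 was lower.

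**Figure D2:**
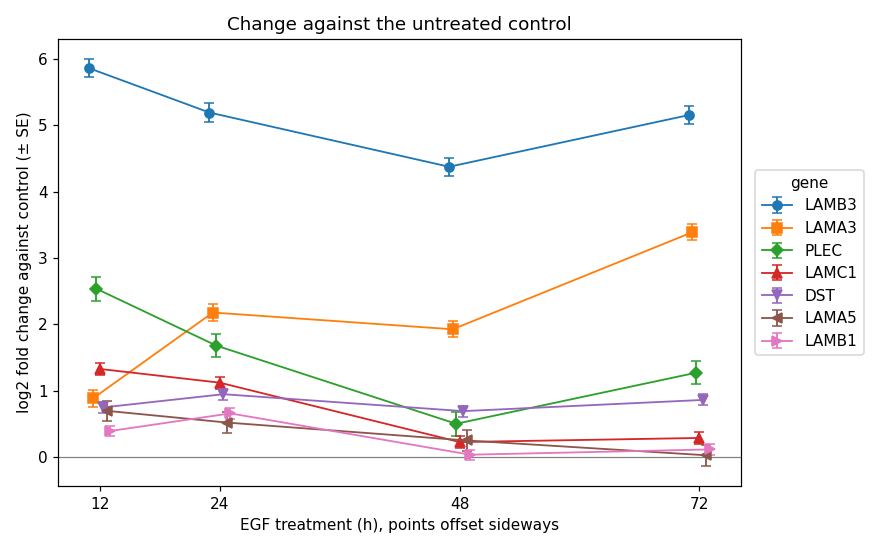
The log2 fold change against the untreated control (y axis) is plotted with its SE against the hours of EGF (x axis) for 7 genes, with points offset sideways. COL17A1 is left out, since its control libraries hold 3 counts or fewer. LAMB3 lay above 4 at every time, LAMA3 climbed from 0.89 to 3.39, and LAMC1, LAMA5 and LAMB1 were below 0.3 at 72 h.

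Per kb of exon, the LAMA3 and LAMB3 levels were far from equal after EGF. In the control, the ratio of LAMB3 to LAMA3 per kb was between 0.900 and 1.55. At 12 h it was between 32.0 and 43.1, at 24 h between 8.93 and 10.1, at 48 h between 5.31 and 7.02 and at 72 h between 3.62 and 4.16. The ratio therefore had no overlap between control and EGF libraries, and it was lower at each later time. These ratios are descriptions of RNA per exon length, with the exons of all transcripts merged, and LAMA3 has transcripts of very different length.

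LAMA5, LAMB1 and LAMC1 encode the chains of laminin-511, and LAMB1 and LAMC1 are also found in other laminins. All 3 were called higher at 12 and 24 h, and at 48 and 72 h LAMC1 alone of the 3 was. LAMC1, the γ1 chain of most laminins, was at 59.5, 46.8, 45.1 and 47.6 CPM in the control. It was at 116, 131, 126 and 127 CPM at 12 h and at 92.5, 112, 119 and 109 CPM at 24 h. At 48 h the libraries were at 52.0, 56.2, 64.5 and 60.1 CPM, and at 72 h at 63.9, 60.2, 61.5 and 57.5 CPM. The first control library was the highest of its group and lay among the 48 and 72 h libraries, whereas the 12 and 24 h libraries were all above the control. The rise was 2.51-fold at 12 h (log2 1.33, SE 0.09, adjusted p = 3.87e-12, edgeR) and 2.18-fold at 24 h (log2 1.12, SE 0.09, adjusted p = 1.33e-10). At 48 h the log2 fold change was 0.23 (SE 0.09, adjusted p = 0.0385, edgeR), with 2 of 4 libraries above all controls. That call was lost in 5 of the 8 fits that left out a library, those without control replicate 2 (adjusted p = 0.0848), 3 (0.113) or 4 (0.0953) and without 48 h replicate 3 (0.132) or 4 (0.0808). It was also lost with no filter on low counts (adjusted p = 0.0538, edgeR) and in a fit of the 8 libraries alone (0.128). At 72 h the log2 fold change was 0.29 (SE 0.09, adjusted p = 0.00684, edgeR), with 3 of 4 libraries above all controls. The fall from 24 to 48 h was 1.86-fold (log2 -0.89, SE 0.09, adjusted p = 1.85e-08, edgeR). The step from 12 to 24 h (-0.21, adjusted p = 0.0484, edgeR) lost its call in 6 of 8 such fits, those without 12 h replicate 2 (0.112), 3 (0.0840) or 4 (0.0888) and without 24 h replicate 1 (0.192), 2 (0.0556) or 4 (0.0731).

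LAMA5 encodes the α5 chain, the common α chain of adult basement membranes. Its control libraries were at 22.4, 32.2, 22.7 and 29.5 CPM, and its libraries at 12 h were at 46.3, 46.7, 37.0 and 43.5 CPM. At 24 h they were at 35.6, 42.9, 41.2 and 34.0 CPM, at 48 h at 33.5, 43.3, 24.9 and 26.0 CPM, and at 72 h at 31.4, 25.5, 23.0 and 29.1 CPM. The 12 and 24 h libraries were all above the control, while at 48 and 72 h the groups overlapped. The log2 fold change was 0.70 (SE 0.15, adjusted p = 0.000347, edgeR) at 12 h and 0.52 (SE 0.15, adjusted p = 0.00583) at 24 h. It was 0.25 (SE 0.15, adjusted p = 0.188, edgeR) at 48 h and 0.03 (SE 0.15, adjusted p = 0.879) at 72 h, neither of which passed the threshold. From 24 to 48 h the difference was -0.27 (adjusted p = 0.148, edgeR), and without 48 h replicate 2 it was -0.45 (adjusted p = 0.00906). At 72 h LAMA5 was lower than at 12 h (log2 -0.67, SE 0.15, adjusted p = 0.000614, edgeR).

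LAMB1, the β1 chain, was at 20.6, 20.6, 24.4 and 24.7 CPM in the control. It was at 29.05, 29.6, 31.7 and 28.5 CPM at 12 h and at 32.2, 35.9, 37.7 and 37.0 CPM at 24 h. At 48 h it was at 20.9, 23.6, 24.8 and 23.3 CPM, and at 72 h at 24.2, 24.5, 24.4 and 25.0 CPM. All libraries at 12 and 24 h were above the control, and those at 48 and 72 h overlapped it. LAMB1 rose by 0.40 (SE 0.08, adjusted p = 8.61e-05, edgeR) on the log2 scale at 12 h and by 0.66 (SE 0.08, adjusted p = 1.06e-07) at 24 h. The differences at 48 h (0.04, SE 0.08) and 72 h (0.12, SE 0.08) did not pass the threshold (adjusted p = 0.716 and 0.197, edgeR). It fell by 0.62 (SE 0.08, adjusted p = 5.88e-07, edgeR) from 24 to 48 h.

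The deposited normalized values differ from the counts by a factor for each gene and library. With those factors in place of TMM, the log2 fold change of LAMA5 was 0.14 (adjusted p = 0.315, edgeR) at 12 h and 0.19 (adjusted p = 0.178) at 24 h, and that of LAMB1 was 0.50 (adjusted p = 0.302) at 12 h and 0.55 (adjusted p = 0.275) at 24 h, so none of these 4 calls was kept. The SE of LAMB1 was then 0.41, beside 0.08 with TMM. On the log2 scale, relative to the median factor of its library, the factor of LAMB1 was -2.17 in 48 h replicate 2. In every other library it was between -0.354 and 0.701. The fit takes its spread from all groups, and the part of 48 h replicate 2 in this SE was not tested.

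The order of the 5 laminin genes described here, other chains left aside, changed between the groups per kb of exon. In the control, LAMC1 was the highest of the 5 (5.92 ± 0.785 CPM per kb, SD), followed by LAMB1 (2.77 ± 0.281) and LAMA5 (1.87 ± 0.345), while LAMB3 (0.319 ± 0.0811) and LAMA3 (0.276 ± 0.0408) were lowest. The ranges of LAMB3 and LAMA3 overlapped there. At 12 h LAMB3 (18.6 ± 1.80 CPM per kb) was above LAMC1 (14.9 ± 0.751), with no overlap, and LAMA3 (0.510 ± 0.0673) was still the lowest of the 5. At 48 h LAMC1 (6.92 CPM per kb) and LAMB3 (6.66) overlapped. At 72 h LAMB3 (11.4 ± 1.34 CPM per kb) was above LAMC1 (7.23 ± 0.313). LAMA3 (2.88 ± 0.267 CPM per kb) was then above LAMA5 (1.91 ± 0.261), with no overlap, and overlapped LAMB1 (3.01 ± 0.0453).

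**Figure D3:**
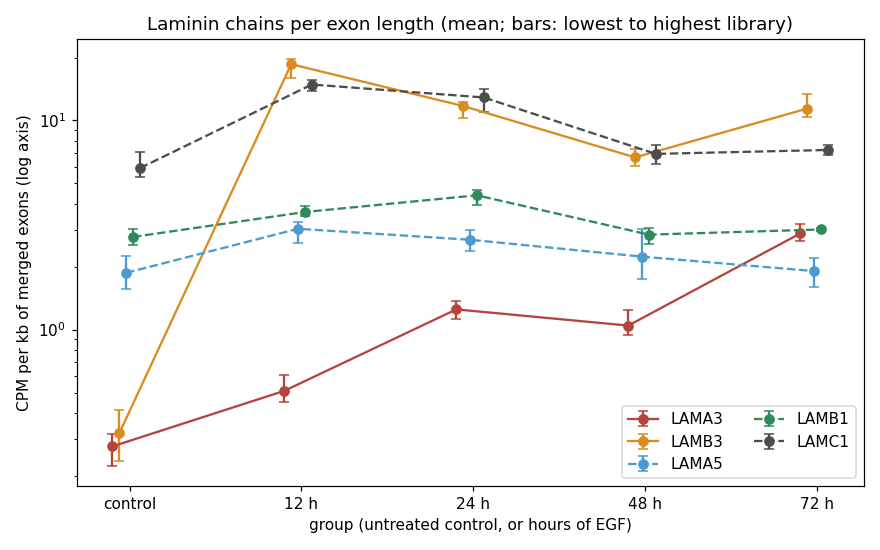
Mean levels of 5 laminin chains in CPM per kb of merged exons (y axis, log scale) are plotted for the control and for the EGF times 12, 24, 48 and 72 h (x axis). Bars run from the lowest to the highest of 4 libraries, solid lines are chains of laminin-332 and dashed lines chains of laminin-511. LAMB3 crossed above LAMC1 at 12 h, and LAMA3 was above LAMA5 at 72 h, at 2.88 against 1.91.

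The balance between α chains and between β chains was measured within each library as the ratio of counts. Such a ratio does not depend on a scaling shared by all genes of a library. Factors that differ between genes, as in the deposited normalized values, would change it, and they were not applied. The log2 ratio of LAMA3 to LAMA5 was -2.71 ± 0.285 (SD, n = 4) in the control, with libraries between -3.04 and -2.36. With EGF it was -2.54 ± 0.193 after 12 h, -1.06 ± 0.177 after 24 h, -1.03 ± 0.488 after 48 h and 0.641 ± 0.161 after 72 h. The control and 12 h ratios overlapped, those at 24 and 48 h were above the control, and at 72 h all 4 libraries held more counts of LAMA3 than of LAMA5. The difference from the control was 0.17 at 12 h (exact two-sided permutation test, p = 0.371, adjusted p = 0.371). At the 3 later times it was 1.65, 1.68 and 3.35, each with p = 0.0286, the smallest that 4 against 4 libraries allow, and an adjusted p of 0.0327 over the 8 tests of this kind (exact permutation tests).

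For the β chains, the log2 ratio of LAMB3 to LAMB1 was -3.95 ± 0.432 (SD, n = 4) in the control, with libraries between -4.46 and -3.41. With EGF it was 1.55 ± 0.212 after 12 h, 0.621 ± 0.0325 after 24 h, 0.430 ± 0.200 after 48 h and 1.12 ± 0.173 after 72 h. Every EGF library held more counts of LAMB3 than of LAMB1, and every control library held fewer. In 48 h replicate 2 the log2 ratio was 0.407. The deposited factors there, which were not applied, were -2.17 for LAMB1 and -0.026 for LAMB3 on the log2 scale. The differences from the control were 5.49, 4.57, 4.38 and 5.06 at 12, 24, 48 and 72 h, each with p = 0.0286 and an adjusted p of 0.0327 (exact permutation tests, two-sided). In counts, the β ratio was thus above the control at 12 h, where the α ratio overlapped it. The deposited factors of LAMA5, log2 relative to the library median, were -0.725 to 0.0228 in the control and 0.194 to 0.370 at 12 h. Those of LAMA3 were -0.139 to 0.301 in the control and -0.564 to 0.271 at 12 h. Whether the α ratio at 12 h overlaps the control with these factors was not tested.

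**Figure D4:**
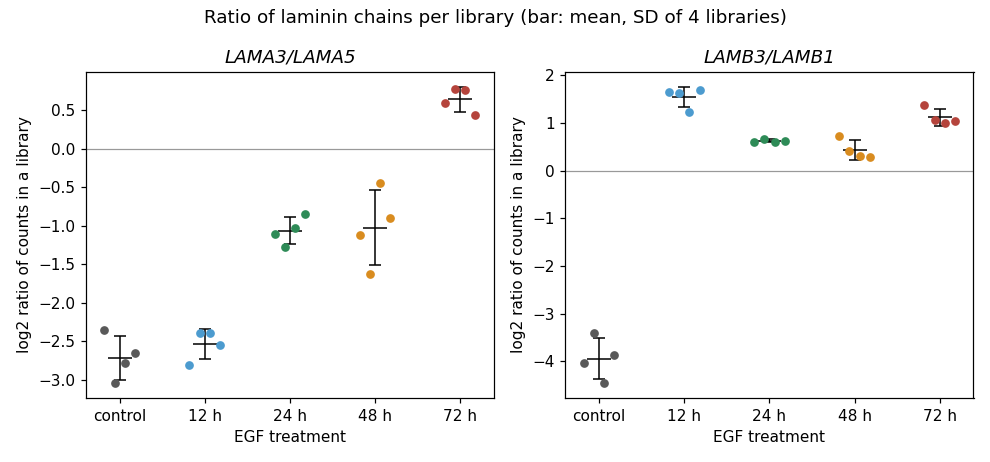
The log2 ratio of counts of LAMA3 to LAMA5 (left) and of LAMB3 to LAMB1 (right) within each library (y axis) is plotted for the control and the EGF times 12, 24, 48 and 72 h (x axis). Points are libraries, marks and bars the mean and SD of 4, and the line at 0 is equal counts. The α ratio passed 0 at 72 h, at a mean of 0.641, and the β ratio was above 0 at every EGF time.

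COL17A1 encodes collagen XVII, the transmembrane collagen of hemidesmosomes also known as BP180. Its 4 control libraries held 3, 2, 0 and 2 counts, and those at 12 h held 3, 5, 3 and 5 counts. The counts were 37, 27, 26 and 19 at 24 h, 70, 68, 80 and 77 at 48 h, and 204, 154, 121 and 147 at 72 h. In CPM the libraries were at most 0.151 in the control and between 0.152 and 0.272 at 12 h, between 0.927 and 1.83 at 24 h, between 3.04 and 3.88 at 48 h, and between 6.76 and 9.39 at 72 h. From 24 h on, the libraries of each time were thus all above those of every earlier group. The highest control library (0.1507 CPM) and the lowest at 12 h (0.1515 CPM) held 3 counts each, so their order depends on the scaling. The summed counts of the 4 libraries, scaled to the same depth, were 18.5 times the control at 24 h (95% exact counting interval 8.68 to 47.1). The ratio was 42.7 (20.4 to 107) at 48 h and 102 (49.2 to 255) at 72 h. These intervals cover counting error only. In edgeR's test the adjusted p was 1.05e-09 at 24 h, 2.88e-12 at 48 h and 5.34e-15 at 72 h.

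At 12 h the ratio for COL17A1 was 2.60 (1.014 to 7.49), with 16 counts in all beside 7 in the control. The adjusted p was 0.0397 in edgeR, and it was lost in 4 of 8 fits that left out a library (those without control replicate 2, 0.0575, or 3, 0.179, and without 12 h replicate 2, 0.101, or 4, 0.0834), with the DESeq2 Wald test (0.0527) and with no filter on low counts (0.0636). Between successive times, the level rose 6.96-fold from 12 to 24 h (adjusted p = 1.24e-07, edgeR), 2.31-fold from 24 to 48 h (adjusted p = 4.52e-05) and 2.39-fold from 48 to 72 h (adjusted p = 9.42e-06). Even so, per kb of exon it was the lowest of the 8 genes at 72 h, at 1.16 ± 0.162 CPM per kb (SD, n = 4).

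PLEC encodes plectin, a plakin that links integrin β4 to intermediate filaments and has roles in many other junctions. It was at 22.6, 32.8, 14.9 and 24.0 CPM in the control, and at 140, 141, 130 and 136 CPM at 12 h. At 24 h it was at 58.5, 84.1, 90.1 and 69.99 CPM, at 48 h at 35.6, 40.7, 29.4 and 28.1 CPM, and at 72 h at 63.4, 50.7, 59.0 and 54.3 CPM. The control libraries spread more than 2-fold, and only the 48 h libraries overlapped them. The rise was 5.80-fold at 12 h (log2 2.54, SE 0.18, adjusted p = 1.60e-10, edgeR), 3.21-fold at 24 h (log2 1.68, SE 0.18, adjusted p = 1.03e-07) and 2.42-fold at 72 h (log2 1.27, SE 0.18, adjusted p = 3.66e-06). At 48 h it was 0.50 on the log2 scale (SE 0.18, adjusted p = 0.0260, edgeR), with 2 of 4 libraries above all controls, and the call was lost in 4 of 8 fits without a library, those without control replicate 1 (adjusted p = 0.0584) or 3 (0.0849) and without 48 h replicate 1 (0.0617) or 2 (0.103). The 48 h call was also lost with no filter on low counts (adjusted p = 0.0884, edgeR) and in a fit of the 8 libraries alone (0.0727). PLEC fell by 0.86 on the log2 scale from 12 to 24 h and by 1.18 from 24 to 48 h, and rose by 0.77 from 48 to 72 h, all past the threshold.

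DST encodes the dystonins, of which the epithelial form BP230 binds keratin filaments at the hemidesmosome. Its libraries were at 86.4, 88.7, 98.4 and 100 CPM in the control. They were at 141, 161, 162 and 165 CPM at 12 h and at 169, 174, 208 and 172 CPM at 24 h. At 48 h they were at 132, 148, 173 and 152 CPM, and at 72 h at 169, 177, 175 and 158 CPM. All 16 EGF libraries lay above the 4 controls. The 24 h libraries were also above those at 12 h, while the 48 and 72 h groups overlapped both. The rise was 1.68-fold at 12 h (log2 0.75, SE 0.08, adjusted p = 2.36e-08, edgeR) and 1.93-fold at 24 h (log2 0.95, SE 0.08, adjusted p = 7.95e-10). It was 1.62-fold at 48 h (log2 0.69, SE 0.08, adjusted p = 2.73e-07, edgeR) and 1.82-fold at 72 h (log2 0.86, SE 0.08, adjusted p = 3.49e-09). With the factors of the deposited normalized values, the call at 12 h was lost (log2 0.28, adjusted p = 0.0708). Among the EGF times, the difference was 0.20 for 24 against 12 h (SE 0.08, adjusted p = 0.0453, edgeR), which lost its call in 6 of 8 fits without a library, those without 12 h replicate 1 (adjusted p = 0.166), 2 (0.0649), 3 (0.0592) or 4 (0.0504) and without 24 h replicate 2 (0.0537) or 3 (0.222). It was -0.25 for 48 against 24 h (adjusted p = 0.0124, edgeR), lost without 24 h replicate 3 (0.0714) or 48 h replicate 1 (0.0604), and 0.11 for 72 against 12 h (adjusted p = 0.232). The last difference was called with library size as the only scaling (0.32, adjusted p = 0.00199, edgeR), among genes with at least 10 counts (0.20, adjusted p = 0.0312) or at least 20 counts (0.23, adjusted p = 0.0159) in every library, and in a fit of the 8 libraries alone (0.13, adjusted p = 0.0257).

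Tested directly between EGF times, 4 of the 8 genes were higher and 3 lower at 24 h than at 12 h, where 27.9% of all genes were called higher and 25.9% lower. In the fits that left out a library, 5 to 6 genes were called for 24 against 12 h. For 48 against 24 h the number was 5 to 7, and for 72 against 48 h it was 4 to 5. From 24 to 48 h, 1 gene (COL17A1) was higher and 5 were lower, with 25.9% and 24.3% of all genes called. From 48 to 72 h, LAMA3, LAMB3, COL17A1 and PLEC were higher and none was lower, with 17.9% of all genes called in each direction. At 72 h, 2 genes (LAMA3 and COL17A1) were higher and 5 were lower than at 12 h, with 35.6% and 32.0% of all genes called. In either direction the shares of all genes were 53.7%, 50.2%, 35.7% and 67.6% for 24 against 12 h, 48 against 24 h, 72 against 48 h and 72 against 12 h. In that order, 2, 1, 4 and 2 of the 8 genes were called and above 1.5-fold, with 17.8%, 15.8%, 7.77% and 26.6% of all genes, and for 24 against 12 h, 48 against 24 h and 72 against 12 h, 2, 4 and 4 were lower by more than 1.5-fold, with 9.33%, 7.99% and 15.3%. The groups did not overlap for 6, 5, 4 and 7 of the 8 genes, with 53.5%, 44.6%, 35.1% and 66.7% of all genes. With library size as the only scaling, the share of all calls that were higher was 68.6% for 24 against 12 h, 71.8% for 48 against 24 h, 33.8% for 72 against 48 h and 68.1% for 72 against 12 h, beside 51.9%, 51.5%, 50.0% and 52.6% with TMM. With the factors of the deposited normalized values it was 39.2% for 24 against 12 h and 39.4% for 72 against 12 h.

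The other 37 genes of laminin and hemidesmosome biology, chosen from the roles of their products, were read in the same fit, and 29 of them passed the filter. Of these, 18 were higher and 5 lower than the control at 12 h, 14 and 6 at 24 h, 13 and 3 at 48 h, and 16 and 6 at 72 h. Among all genes tested, 32.9%, 29.2%, 24.0% and 30.6% were called higher at these times, and 36.5%, 29.6%, 21.8% and 31.0% lower. The same shares stand beside the counts of each shorter list below. The median log2 fold change of the 29 was 0.46, 0.32, 0.19 and 0.38 at the 4 times.

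The 5 hemidesmosome partners had 5 members higher at 12 h, 4 higher and 1 lower at 24 h, and 3 higher and 1 lower at 48 and 72 h. ITGA6 and ITGB4 encode the 2 chains of integrin α6β4. ITGB4 was between 13.4 and 23.8 CPM in the control libraries, between 73.0 and 87.4 CPM at 12 h, 73.1 and 103 CPM at 24 h, 39.8 and 49.4 CPM at 48 h, and 107 and 145 CPM at 72 h. Its log2 fold change was 2.13, 2.33, 1.25 and 2.68 at 12, 24, 48 and 72 h (SE 0.14 each, adjusted p up to 1.48e-07, edgeR), and no EGF library overlapped the control. ITGA6 was between 109 and 134 CPM in the control and between 487 and 511 CPM at 12 h. Its log2 fold changes, in order of time, were 2.11, 1.90, 0.46 and 1.16 (SE 0.09 to 0.10), all past the threshold. Both genes fell from 24 to 48 h (ITGA6 by 1.44 and ITGB4 by 1.07 on the log2 scale) and rose again to 72 h (by 0.70 and 1.43), as LAMB3 and PLEC did.

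Among the keratins of basal cells to which hemidesmosomes attach, KRT14 was between 5.67 and 7.79 CPM in the control and rose by 2.35, 2.53, 0.84 and 2.11 on the log2 scale at 12, 24, 48 and 72 h (SE 0.11 each, edgeR). KRT5 was between 178 and 224 CPM in the control. It rose by 2.71 (SE 0.08) at 12 h and by 1.26 (SE 0.07) at 24 h, and at 48 and 72 h its libraries, between 177 and 215 CPM, overlapped the control. CD151, a tetraspanin that associates with laminin-binding integrins, was between 68.2 and 102 CPM in the control. Its log2 fold change was 0.37 (SE 0.11, adjusted p = 0.00614, edgeR) at 12 h, and -0.36, -0.61 and -0.66 (SE 0.12) at 24, 48 and 72 h. The rise of CD151 at 12 h was lost with library size as the only scaling (0.08, adjusted p = 0.514), and the fall at 24 h without control replicate 2 (-0.26, adjusted p = 0.0544).

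**Figure D5:**
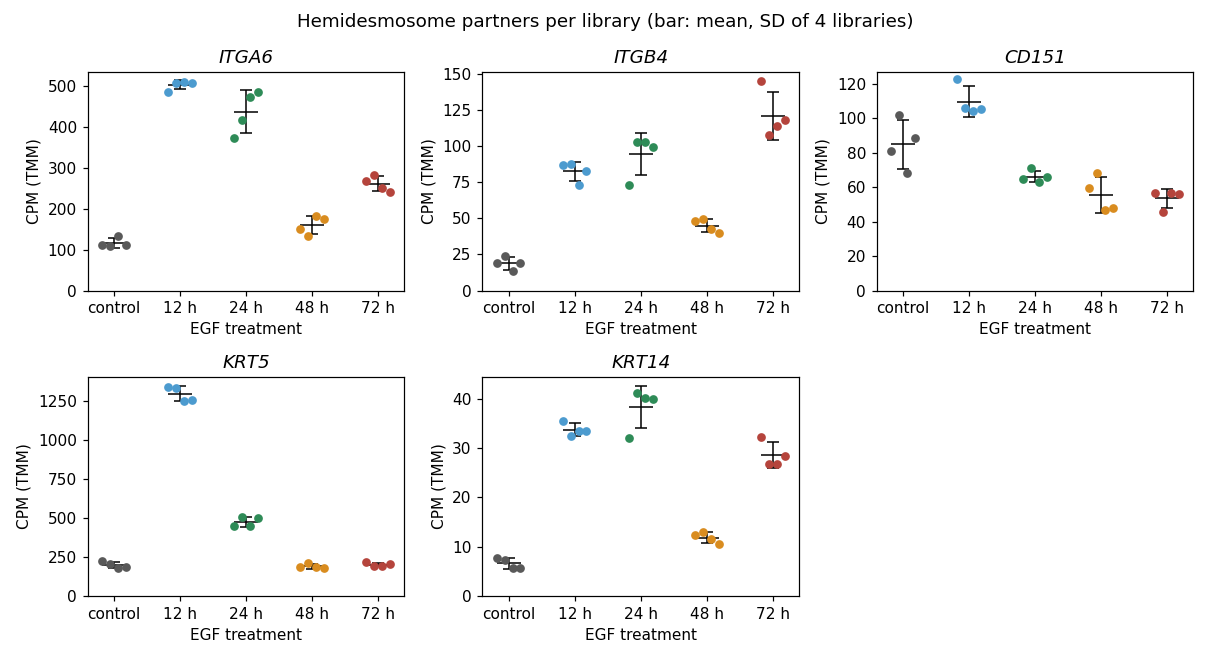
Panels plot the level in CPM after TMM normalization (y axis, from 0) of the 5 hemidesmosome partners in every library of the control and of the EGF times 12, 24, 48 and 72 h (x axis). Points are libraries, and the marks and bars are the mean and SD of 4. ITGA6, ITGB4 and KRT14 dipped at 48 h, and CD151 was lower at 72 h than in the control, at 53.6 against 84.9 CPM.

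Among the other laminin chains, the smallest log2 fold change at 72 h was that of LAMB2, the β2 chain, at 0.34 (SE 0.12, adjusted p = 0.0153, edgeR), whose call was lost without control replicate 1 (adjusted p = 0.0611) or 3 (0.0665) and with library size as the only scaling (0.0581).

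Of 5 other laminin receptors, 4 passed the filter, with 2 higher and 2 lower at 12, 24 and 72 h and 1 of each at 48 h. ITGA3, the α chain of integrin α3β1, went from 21.5 ± 5.02 CPM in the control to 120 ± 8.01 at 12 h and 67.9 ± 4.92 at 72 h (SD, n = 4), with log2 fold changes of 2.48 and 1.66. BCAM, the Lutheran glycoprotein and a receptor of the α5 chain, was lower at every time, with 23.0 ± 5.27 CPM in control libraries and 8.80 ± 0.608 in those of 72 h (log2 -1.39, SE 0.17, adjusted p = 2.12e-07, edgeR).

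Of 10 basement membrane partners, 7 passed the filter, with 2 higher and 3 lower at 12 h, 1 and 3 at 24 h, 2 and 1 at 48 h, and 2 and 2 at 72 h. COL4A6, a chain of type IV collagen, had the largest log2 fold change at 72 h (2.33, SE 0.35, adjusted p = 3.50e-06, edgeR), at 2.10 ± 0.226 CPM beside 0.415 ± 0.170 in the control (SD, n = 4). COL4A5, which pairs with it in α5α6 collagen IV and lies beside it on the X chromosome, had the smallest (-0.93, SE 0.13, adjusted p = 1.35e-06, edgeR), at 28.2 ± 1.91 beside 53.6 ± 12.5 CPM.

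Of 6 proteases that cut laminin-332 or collagen XVII, 5 passed the filter, with 4 higher at 12 h, 3 higher at 24 and 48 h, and 3 higher and 1 lower at 72 h. ADAM9, a sheddase of collagen XVII, went from 62.8 ± 8.18 CPM to 220.5 ± 10.8 at 12 h and 141 ± 6.87 at 72 h (SD, n = 4), with log2 fold changes of 1.81 and 1.17. ADAM10 was lower at 72 h (log2 -0.29, SE 0.08, adjusted p = 0.00196, edgeR). Of 4 other plakins, 3 passed the filter, with 3 higher at 12 h, 2 at 24 h and 1 at 48 and 72 h. The call of EVPL at 12 h was lost with library size as the only scaling (0.18, adjusted p = 0.298, edgeR). MACF1, the closest relative of DST, rose by 1.04, 1.25, 0.50 and 1.014 on the log2 scale at the 4 times (SE 0.08 each), and EVPL, which encodes envoplakin, measured 8.65 ± 1.86 CPM in control libraries and 6.71 ± 0.724 CPM in those of 72 h (SD, n = 4, adjusted p = 0.0547, edgeR).

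For each of the 8 genes, the pattern most like it was sought among 13873 other genes with a mean of at least 1 CPM, by Pearson's correlation of log2 CPM over the 20 libraries. The points fall into 5 groups of 4 libraries, so the correlation mostly measures likeness of the group means. LAMA3 was closest to HHLA1 (0.984) and PRR9 (0.982), and COL17A1 to TUBA4A (0.988) and DHRS3 (0.987). LAMB3 was closest to SEC14L2 (0.994) and SUSD3 (0.992), and PLEC was close to SH3PXD2B (0.989). For LAMC1 the closest were CSNK2A2 (0.984) and CTSC (0.973), and for DST they were CD109 (0.978) and MAP1B (0.972). LAMB1 was closest to DIAPH2 (0.963) and SETBP1 (0.942), and LAMA5, with the lowest correlations of the 8 genes, to INTS11 (0.934) and TMEM63A (0.915).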

How the data were processed

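RNA of the 20 libraries was prepared by the authors with the Lexogen Corall mRNA protocol and sequenced as 75 bp single-end reads. For each of 60271 genes and each library, the tables deposited by the authors give an estimated count as a whole number, and all results rest on these. The 10 deposited tables hold the same counts. The build hg38 and DESeq2 are named in the submitters' processing notes, with no version. The aligner, the counting tool, the annotation and the handling of molecular identifiers are not given in the sources used here, so the counts may hold PCR duplicates. Beside the counts, the authors deposited normalized values, a score on the scale of counts, which differ from the counts by a factor for each gene and library, and fold changes and p-values of their own comparisons, which were not used.

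The fit used edgeR 4.0.16 (R 4.3.3, with limma 3.58.1), filterByExpr, TMM normalization and one robust quasi-likelihood model of 5 group means. A prior count of 0.125 was used for fold changes and of 2 for log2 CPM. Ratios of chains were tested with exact permutation tests, with Benjamini-Hochberg adjustment over 8 tests. The edgeR procedure was run on simulated counts in which few genes changed, in both directions. Such counts cannot test the scaling where most genes change. The chi-square per gene between replicates was 3.53 to 57.5 over 30 pairs, so no library was counted as a copy of another. The precision from depth is low below about 1 CPM, as for COL17A1 in the control and at 12 h.

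The 8 genes and the lists were chosen with earlier results of these data known. Named are the 8 genes, every hemidesmosome partner, the related gene with the largest and the one with the smallest log2 fold change at 72 h in each other list, and the 2 genes of most like pattern for each of the 8. Alternatives were scaling by library size only, scaling by the size factors of DESeq2 1.42.0 and its Wald test, a looser filter (1 count in any library), a stricter one (10 counts in each library), a fit to the 8 compared libraries alone, a block per replicate number, a pseudocount of 5 for the ratios, and leaving out each library. Added after seeing the data were the factors per gene of the authors' normalized values, in the 11956 genes that reach 20 counts throughout, and the same genes with TMM. A few of the genes that these rules name are not reported here.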

Additional observations from a re-analysis of the deposited data

Results flagged for a closer look

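In 5 of the 40 sets of 4 libraries (8 genes in 5 groups), a single library stood apart from the other 3, by Dixon's criterion at the 95% level, which flags about 1 in 20 sets by chance. LAMB3 was lowest in 12 h replicate 3, at 74.5 CPM, and in 24 h replicate 1, at 48.4 CPM, and in both cases the library was still far above the control. LAMC1 was highest in control replicate 1, at 59.5 CPM. DST was lowest in 12 h replicate 1, at 141 CPM, and highest in 24 h replicate 3, at 208 CPM. Without 24 h replicate 3 the difference of DST between 24 and 12 h was 0.12 (adjusted p = 0.222, edgeR), beside 0.20 (adjusted p = 0.0453) with it.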

How the results depend on the processing

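Depth limited the precision for COL17A1 before 24 h. The 8 genes had 64 differences, which include those that were not called, and 6 lost their call in at least 1 fit without a library. Of 48 called differences from the control, those of the related genes picked by the naming rule, 2 did. The other related genes were not checked in this way. With library size only, 3 differences that were not called changed sign, LAMA5 at 72 h against the control (-0.048), and LAMB1 (-0.0080) and LAMC1 (-0.026) at 72 h against 48 h, and the calls of LAMC1 at 24 h against 12 h (adjusted p = 0.544), DST at 48 h against 24 h (0.342) and LAMB1 at 72 h against 12 h (0.435) were lost. Leaving out a library moved LAMA5 at 72 h between -0.045 and 0.13 and LAMB1 at 48 h between -0.0044 and 0.085. With the factors of the deposited normalized values, LAMA5 was -0.18 at 48 h and -0.27 at 72 h against the control and 0.055 at 24 h against 12 h. LAMB1, whose factor in 48 h replicate 2 was -2.17 on the log2 scale, was 0.38 at 48 h against 24 h. At 72 h against 48 h, LAMB1 was -0.60 and LAMC1 was -0.14. All of these were reversed with the deposited factors, and the cause was not tested. Under these factors, which leave COL17A1 out, 4 of the genes were called at 12 h, 5 at 24 h and 3 at 24 h against 12 h. Of the 11956 genes tested there, 36.1% were called higher and 29.2% lower at 12 h. At 24 h the shares were 26.9% and 26.1%, and for 24 against 12 h they were 19.1% and 29.7%. Among these 11956 genes the calls were 6336, 4334 and 6559 at 24, 48 and 72 h against the control. They were 5835 for 24 against 12 h and 4993 for 48 against 24 h. For 72 against 48 h they were 3209, and for 72 against 12 h 7268. The same genes with TMM kept every count of calls within 1.5 times. PLEC (adjusted p = 0.0901), ITGA6 (0.0679) and KRT14 (0.0904) at 48 h and ADAM10 at 72 h (0.141) lost their calls. Without 48 h replicate 3, DST was called at 72 h against 48 h (0.24, adjusted p = 0.0283, edgeR).

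Samples with the same replicate number did not consistently deviate together, with correlations from -0.239 to 0.348 over the 8 comparisons, and not every sample correlated best with its own number. The replicate block changed 2 calls among the 64 differences of the 8 genes. It ended the call of LAMC1 at 24 h against 12 h (-0.21, adjusted p = 0.0525) and added that of DST at 72 h against 48 h (0.18, adjusted p = 0.0405). For the chain ratios, pairing by number (exact sign flips over 4 pairs) left the differences at 1.65, 1.68 and 3.35 for LAMA3 to LAMA5 and at 5.49, 4.57, 4.38 and 5.06 for LAMB3 to LAMB1, each with an adjusted p of 0.143, and 4 pairs are too few for any to pass the threshold.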
